A study of Mus musculus with 32 samples.

Results

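The DNA replication and S-phase genes are 34 genes whose products license, fire and copy replication origins, supply nucleotides or package new DNA. They were picked out of the deposited table by gene symbol, with no threshold on measured values, and all 34 were found among its 20560 genes. All 34 also passed the filter on low values in every comparison, so each count of members below is out of 34. Their means over the 32 libraries ran from 59.1 normalized reads for E2f2 to 2935 for Mcm2; gene length is not taken into account, so levels are compared between libraries and not between genes.

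Before S phase, the origin recognition complex, Cdc6 and Cdt1 load the ring made of MCM2 to MCM7 onto origins. Cdc45, the GINS proteins and Mcm10 then turn the ring into an active helicase, and the polymerases, the sliding clamp PCNA and its loader RFC copy the DNA. E2F factors switch on much of this set at the passage from G1 to S. In confluent 3T3-L1 preadipocytes the hormone cocktail is known to trigger a short burst of division, called mitotic clonal expansion, before the fat cell genes take over.

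RNA was sequenced from 3T3-L1, a mouse preadipocyte cell line, on days 0, 3, 7 and 11 of fat cell differentiation. Each day had 4 libraries from cells with the scramble control shCtrl, 2 from cells with shRNA #1 against Zbtb9 and 2 from cells with shRNA #2, written here as shRNA 1 and shRNA 2. All cultures, control included, went through the same schedule: dexamethasone, 3-isobutyl-1-methylxanthine and insulin on day 0, 2 days after confluence, insulin alone from day 3 and no hormone from day 7. The libraries are labelled as biological replicates of 1 cell line without saying whether the shRNA was introduced separately for each, so p-values measure the spread between these cultures. The labels do not say whether day 0 cells were taken before the cocktail was added.

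Zbtb9 had few reads, 6.35 to 22.3 normalized reads over the 16 control libraries. Over all days its mean was 57.7% of control with shRNA 1 and 46.6% with shRNA 2, but 3 of 16 knockdown libraries lay inside the control range of their own day. These were the second shRNA 1 library of day 3 at 7.41 and the first shRNA 2 library of day 3 at 8.99, against 6.35 to 12.6, and the second shRNA 1 library of day 11 at 19.3, against 12.1 to 19.96. Libraries held 22300000 to 31100000 reads in genes, rebuilt from the deposited values. The summed level of 12 adipocyte markers was 20900 to 21470 normalized reads in control and 23080 to 24590 in knockdown libraries on day 0, and 61730 to 66600 against 162900 to 242400 on day 7. Of 9 markers of cell types foreign to the culture, 4 were in the table, and apart from Pecam1 with at most 41.6 none passed 3.06 normalized reads.

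Promoters are shown for the E2F motif, which some of the members' windows hold and others do not. RefSeq windows on GRCm38.p6, from 250 bases before to 50 after a transcript start, matched 30 of the 34 members in 36 windows. Pole, Gins1, Gins2 and Mcm4 had none. A transcript start can lie downstream of the gene's outer bound. By the gene bounds of the GENCODE annotation, all windows of Cdc6, E2f1 and Mcm7 lie wholly inside the gene. The same holds for the windows of Lig1 and Uhrf1 that hold a motif. The motifs TTTCCCGC, TTTGGCGC, TTTCGCGC and TTTGCCGC were searched on both strands, and matches may overlap. At least 1 stood in the windows of 14 of 30 members (46.7%), 2 of 30 mitosis genes (6.67%) and 2.6% of all genes in the promoter table. With TTTCCCGC and TTTGGCGC alone it was 11 of 30 members against 1.8% of all genes. The cell cycle homology region, searched as TTTGAA or TTCGAA, stood in 23.3% of members, 80% of mitosis genes and 21.7% of all genes. CCAAT stood in 63.3%, 76.7% and 41.1% of the same sets. A match is a run of letters and not a measured binding site. Capitals below mark the E2F motifs, each window reads 5′ to 3′ along the gene, and 4 windows with a motif are followed by 2 without.
Mcm5 (chr8:75109259-75109558, plus strand): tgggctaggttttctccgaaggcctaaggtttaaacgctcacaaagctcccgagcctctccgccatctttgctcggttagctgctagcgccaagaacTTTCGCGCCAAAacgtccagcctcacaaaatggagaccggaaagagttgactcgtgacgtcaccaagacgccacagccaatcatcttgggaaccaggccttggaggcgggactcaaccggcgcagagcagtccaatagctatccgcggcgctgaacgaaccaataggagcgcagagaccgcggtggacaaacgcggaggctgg
Mcm6 (chr1:128359656-128359955, minus strand): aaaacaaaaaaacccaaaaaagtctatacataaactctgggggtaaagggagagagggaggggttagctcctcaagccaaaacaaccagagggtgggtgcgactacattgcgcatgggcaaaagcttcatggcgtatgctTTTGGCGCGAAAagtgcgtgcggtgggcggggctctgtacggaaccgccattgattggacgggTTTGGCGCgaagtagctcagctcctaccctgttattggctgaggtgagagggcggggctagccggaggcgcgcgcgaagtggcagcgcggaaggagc
Cdc6 (chr11:98907901-98908200, plus strand): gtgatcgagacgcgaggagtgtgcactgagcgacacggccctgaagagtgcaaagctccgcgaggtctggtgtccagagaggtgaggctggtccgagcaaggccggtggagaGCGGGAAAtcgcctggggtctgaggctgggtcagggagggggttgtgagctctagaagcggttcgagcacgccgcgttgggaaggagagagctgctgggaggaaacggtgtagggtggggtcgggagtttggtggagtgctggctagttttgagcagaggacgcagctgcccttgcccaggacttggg
Cdt1 (chr8:122567765-122568064, plus strand): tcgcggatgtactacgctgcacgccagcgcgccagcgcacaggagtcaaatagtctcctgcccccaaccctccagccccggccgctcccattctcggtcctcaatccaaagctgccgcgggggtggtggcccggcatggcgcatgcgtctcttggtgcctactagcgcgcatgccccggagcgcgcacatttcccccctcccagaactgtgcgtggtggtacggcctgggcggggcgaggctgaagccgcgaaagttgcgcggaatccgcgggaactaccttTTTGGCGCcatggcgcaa
Mcm2 (chr6:88898731-88899030, minus strand): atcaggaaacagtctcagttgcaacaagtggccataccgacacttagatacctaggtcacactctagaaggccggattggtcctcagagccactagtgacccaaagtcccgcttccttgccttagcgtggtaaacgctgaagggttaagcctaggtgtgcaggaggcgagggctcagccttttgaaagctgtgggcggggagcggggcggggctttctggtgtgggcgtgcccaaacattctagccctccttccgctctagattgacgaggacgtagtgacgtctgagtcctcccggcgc
Cdc45 (chr16:18811923-18812222, minus strand): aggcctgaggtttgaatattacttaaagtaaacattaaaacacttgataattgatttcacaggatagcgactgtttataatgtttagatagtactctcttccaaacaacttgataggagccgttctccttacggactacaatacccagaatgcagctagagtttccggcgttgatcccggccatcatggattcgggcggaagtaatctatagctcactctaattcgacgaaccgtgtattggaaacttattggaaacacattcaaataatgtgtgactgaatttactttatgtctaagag

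In control cells the replication genes peaked on day 3. Of the 34 members, 22 were higher on day 3 than on day 0 and 3 were lower, at an adjusted p under 0.05 in limma, where 38.3% and 38.2% of all genes tested were called in those directions. The members' median log2 change was 0.28, against 0.00 over all genes. The highest control mean fell on day 3 for 25 of 34 members, on day 0 for 6 and on day 7 for E2f1, Lig1 and Tk1, whereas day 3 held the highest mean of 33.7% of all genes tested. In bulk RNA, fewer cycling cells and less RNA of a gene in each cell cannot be told apart. When every library was given the same total, the median of all genes on day 3 moved to -0.12 and the members' counts to 16 higher and 7 lower, with a median of 0.15. The share of higher calls among all genes called then went from 50.1% to 38.6%.

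**Figure D1:**
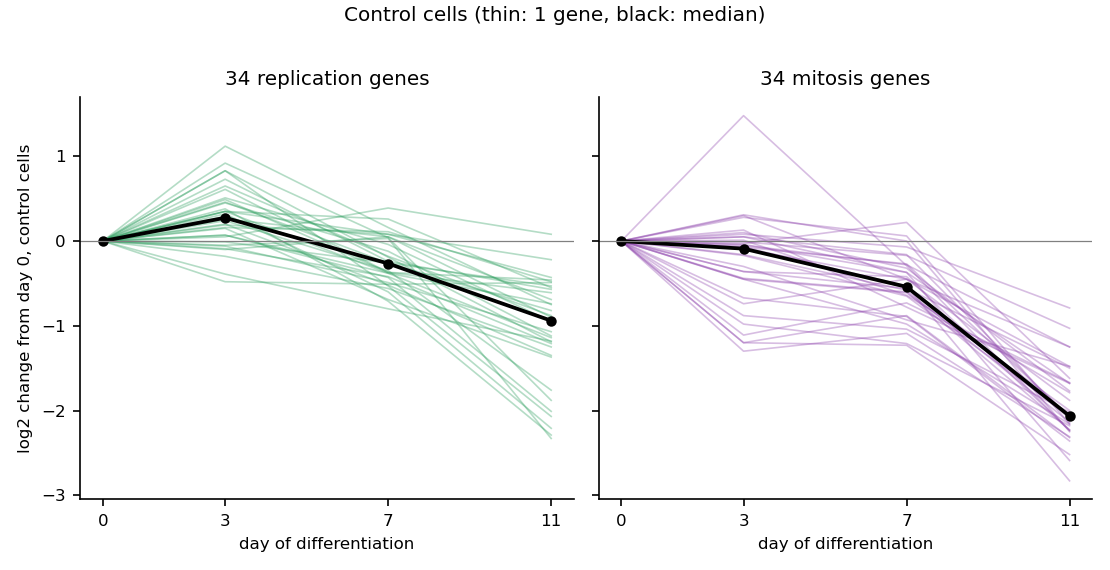
Log2 change of each gene from day 0 in control cells (y axis) by day of differentiation (x axis), from 4 libraries a day; thin lines are genes and the thick line is the list median. The replication median is 0.28 on day 3 and -0.94 on day 11, and the mitosis median is -0.09 and -2.06.

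E2f2, an activating E2F factor, changed most of all members on day 3. Its control libraries had 30.3, 32.4, 37.5 and 39.8 normalized reads on day 0 and 99.9, 94.1, 109 and 129 on day 3, with no overlap. The log2 change was 1.12 ± 0.12 (SE) with an adjusted p of 1.28e-10 in limma. Log2 changes are taken from the deposited log2 values, which shrink differences of low genes. For such genes they can be smaller than the normalized reads beside them. E2f1, of the same activating class, had 1030, 1047, 1027 and 1030 on day 0 and 1014, 1074, 1097 and 1109 on day 3, a change of 0.05 with an adjusted p of 0.328. Rrm2, the S-phase subunit of ribonucleotide reductase, went from 747 to 787 normalized reads to 1333 to 1621, a log2 change of 0.92 ± 0.07 (SE). Its partner Rrm1 was lower on day 3, at -0.09 with an adjusted p of 0.0417.

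Among the licensing genes Cdc6, which recruits the MCM ring, had 215, 206, 211 and 219.7 normalized reads on day 0 and 454, 399.8, 354 and 422 on day 3, a log2 change of 0.83. Cdt1, its partner in loading, was at 0.65, Mcm7 at 0.61, Mcm2 at 0.49, Orc6 at 0.46, Mcm6 at 0.45, Mcm5 at 0.38, Mcm3 at 0.20 and Mcm4 at 0.15, all called. Orc1, a subunit of the origin recognition complex, was not called, at -0.18 with an adjusted p of 0.141. The clamp gene Pcna rose by 0.73 and the helicase activator Cdc45 by 0.83. The members lower on day 3 were Rfc3, a clamp loader subunit, at -0.48, the histone chaperone Chaf1b at -0.39 and Rrm1.

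After day 3 most members fell in control cells. On day 7, E2f1 at 0.39 and the clamp loader subunit Rfc5 at 0.26 were the 2 members higher than on day 0 and 22 were lower, against 33.3% and 35.8% of all genes. Against day 3, 2 were higher and 27 lower on day 7, against 37.6% and 36.6%. On day 11, 0 were higher and 33 lower than on day 0, against 33% and 31.6%, and 0 were higher and 32 lower than on day 7, against 28.9% and 26.1%. Over the same course 11, 12 and 12 of 12 adipocyte markers were higher on days 3, 7 and 11 than on day 0, and 1, 0 and 0 lower. The preadipocyte list was mixed: of 7 tested, 5, 5 and 3 were lower and 2, 2 and 1 higher. The part of both marker lists in the members' course was not tested.

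The size of the fall by day 11 differed widely between members. Mcm5 had 1248, 1306, 1278 and 1238 normalized reads in the day 0 control libraries and 253, 196, 264 and 216 on day 11, a log2 change of -2.29 ± 0.07 (SE). Tk1, the salvage thymidine kinase, was at -2.33, Mcm10 at -2.21, Cdc6 at -2.07 and Uhrf1, which guides DNA methylation to new strands, at -2.01. Mcm2 and Mcm7, partners of Mcm5 in the same ring, were at -0.46 and -0.61. E2f1 was the member not called, at 0.08 with 1048 to 1151 normalized reads on day 11.

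The mitosis list, 34 genes of mitosis and the G2 phase before it that include spindle, kinetochore and cytokinesis genes, mitotic cyclins and the markers Mki67 and Top2a, was the comparison for the later phase of the cycle. In control cells 4 of its genes were higher and 14 lower on day 3 than on day 0, against 38.3% and 38.2% of all genes, with a median of -0.09; the lower count is near that background. Its highest control mean fell on day 0 for 23 genes and on day 3 for 10, against 27.7% and 33.7% of all genes tested. Top2a, the topoisomerase that untangles chromosomes, rose by 1.48 on day 3. Mki67, the proliferation marker Ki-67, was at -0.07 (adjusted p 0.382) and Ccnb1, the mitotic cyclin B1, at -0.16 (adjusted p 0.105). The mean log2 value of the members minus that of the mitosis list was 0.36 ± 0.02 (SD, n = 4) in control cells on day 0, 0.89 ± 0.06 on day 3, 0.65 ± 0.10 on day 7 and 1.22 ± 0.03 on day 11. These differences between lists are descriptions, with no test.

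**Figure D2:**
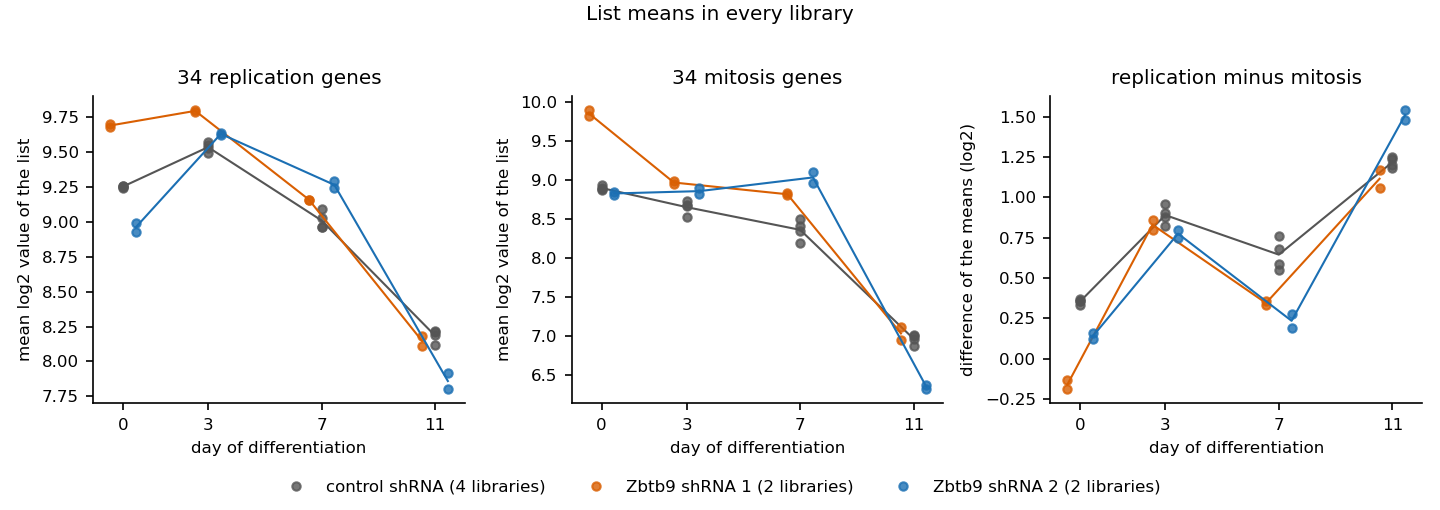
Mean log2 value of the replication list, of the mitosis list and their difference (y axes) in each library by day (x axis); points are libraries and lines join group means. On day 0 the replication mean is 9.68 and 9.70 with shRNA 1, 9.24 to 9.26 in control and 8.93 and 8.99 with shRNA 2.

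On day 0 the replication genes lay in opposite directions from control with the 2 shRNAs. With shRNA 1, 33 of 34 members were higher than control and 0 lower, where 15.8% and 18.9% of all genes were called, and the members' median log2 change was 0.42. With shRNA 2, 0 were higher and 22 lower, against 7.38% and 10.2%, and the median was -0.27. Both comparisons share the same 4 control libraries. Compared directly, 0 members were higher and 34 lower with shRNA 2 than with shRNA 1, against 18.6% and 16.4%, with a median of -0.70. In 27 of 34 members both shRNA 1 libraries lay above all 4 control libraries and both shRNA 2 libraries below them, an order that 4.1% of 13216 genes showed. With the 4 knockdown libraries as 1 group, 0 members were higher and 0 lower, against 0.817% and 2.44%; limma's unadjusted p was under 0.05 for 1 member and voom on rebuilt reads called 0. A fit with the shRNAs as separate groups called 7.

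Cdt1, the licensing factor that is destroyed once S phase begins, had the most negative log2 change of all members with shRNA 2. Its day 0 libraries had 619, 659, 728 and 699.6 normalized reads in control cells, 905 and 1000 with shRNA 1 and 360.1 and 322 with shRNA 2. The groups did not overlap, and the log2 change was 0.47 ± 0.07 (SE) with shRNA 1 and -0.92 ± 0.07 with shRNA 2, with adjusted p of 7.35e-06 and 1.29e-10 in limma. Cdc6 had 439 and 358 with shRNA 1 and 176 and 135 with shRNA 2, on either side of 206 to 219.7 in control, for log2 changes of 0.80 and -0.40. Mcm5 had 2011 and 1990 with shRNA 1 and 939 and 876 with shRNA 2 against 1238 to 1306 in control, for 0.63 and -0.46.

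The rest of the licensing set followed with unequal sizes. The log2 changes with shRNA 1 and shRNA 2 were 0.23 and -0.23 for Mcm2, 0.46 and -0.50 for Mcm3, 0.32 and -0.23 for Mcm4, 0.41 and -0.28 for Mcm6 and 0.38 and -0.45 for Mcm7, all called. Orc1 had 253 and 273 normalized reads with shRNA 1, 132 and 110.3 with shRNA 2 and 162, 126, 164 and 173 in control; it rose by 0.63 with shRNA 1 and was at -0.30 with shRNA 2, where the libraries overlapped control and the adjusted p was 0.0832. Orc6 was at 0.24 and -0.17, the latter with an adjusted p of 0.0524. Among the helicase activators, Mcm10 was at 0.60 and -0.53 and Cdc45 at 0.41 and -0.38. The GINS genes Gins1, Gins2 and Gins3 were higher with shRNA 1, at 0.39, 0.34 and 0.36, and not called with shRNA 2, at -0.33, -0.10 and -0.02.

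Several genes of the copying machinery were called with shRNA 1 and not with shRNA 2. Pole, the catalytic subunit of the leading-strand polymerase, had 1204 and 1214 normalized reads with shRNA 1, 617 and 618 with shRNA 2 and 631, 737, 657 and 734 in control, for log2 changes of 0.76 and -0.15. Prim1, the primase subunit with the largest pooled rise of day 0, had 469 and 392 with shRNA 1, 310.1 and 282 with shRNA 2 and 284, 273, 289 and 264 in control; its pooled value of 0.32 was not called, with an adjusted p of 0.193. Pola1, the polymerase alpha subunit that extends primers, was called with both shRNAs, at 0.49 and -0.19. The flap nuclease Fen1 was at 0.48 with shRNA 1 and, not called, at -0.02 with shRNA 2. Pold1, the lagging-strand polymerase, was the member called with neither shRNA, at 0.09 and -0.17.

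Clamp, nucleotide and chromatin genes lay on both sides of control too. Pcna had 2050 and 2179 normalized reads with shRNA 1, 1290 and 1296 with shRNA 2 and 1707, 1637, 1746 and 1698 in control, for log2 changes of 0.30 and -0.37. The loader subunits were at 0.23 and -0.31 for Rfc3, 0.42 and -0.27 for Rfc4 and 0.57 and -0.38 for Rfc5, with Rfc4 not called with shRNA 2. Rrm2 had 1184 and 1297 with shRNA 1, 636 and 637 with shRNA 2 and 747, 758, 787 and 760.1 in control, for 0.66 and -0.25. The thymidylate synthase gene Tyms was at 0.56 and -0.35, Tk1 at 0.62 and -0.54 and Rrm1 at 0.29 and -0.09, where the last was not called. Chaf1a and Chaf1b, subunits of chromatin assembly factor 1, were at 0.41 and -0.25 and at 0.32 and -0.38. Uhrf1, with 2051 and 2159, then 1277 and 1207, against 1449, 1622, 1402 and 1519, was at 0.47 and -0.26, and the DNA ligase Lig1, with 1144 and 1090, then 846 and 806, against 943, 1065, 940.2 and 975, at 0.18 and -0.23.

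E2f1 had 1142 and 1143 normalized reads with shRNA 1, 928 and 938 with shRNA 2 and 1030, 1047, 1027 and 1030 in control, for log2 changes of 0.14, which was called, and -0.14, which was not, with an adjusted p of 0.0615. E2f2 was at 0.46 and -0.45. Without the second shRNA 2 library the 22 calls with shRNA 2 became 13. The adipocyte marker mean was 7.33 and 7.37 with shRNA 1, 7.30 and 7.33 with shRNA 2 and 7.27 to 7.35 in control libraries on this day. Unlike it, the preadipocyte marker mean was 12.56 to 12.64 in knockdown and 12.79 to 12.88 in control libraries. Of 7 preadipocyte markers tested, 5 were lower and 1 higher with shRNA 1, and 4 were lower and 0 higher with shRNA 2. The part of these markers in the members' changes was not tested.

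**Figure D3:**
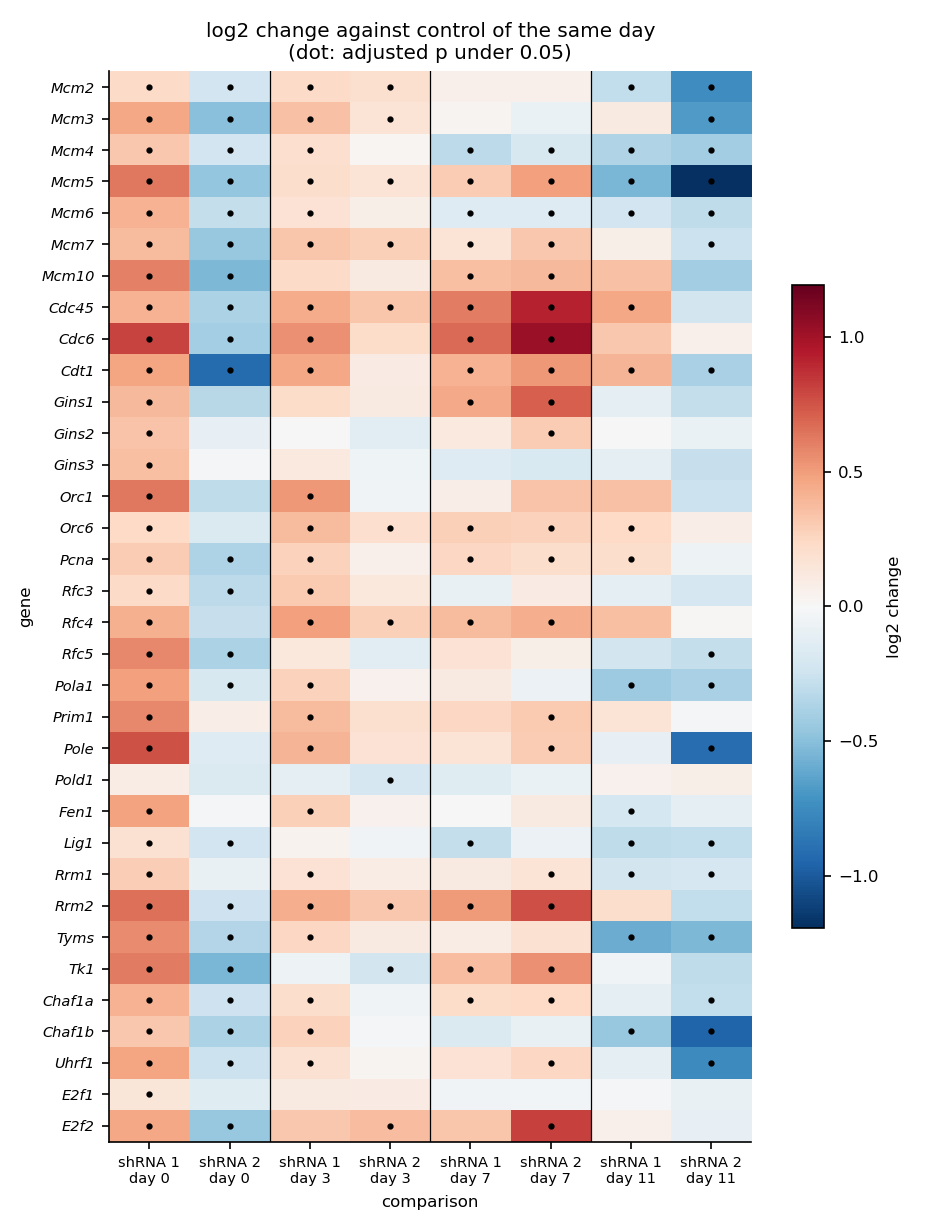
Log2 change of each of the 34 members (rows) against the control libraries of the same day, for each shRNA and day (columns); colour gives the change and a dot marks an adjusted p under 0.05. Day 0 shows 33 members higher with shRNA 1 and 22 lower with shRNA 2, and day 11 shows Mcm5 at -1.19 with shRNA 2.

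On day 3, at the control peak, some members were higher still in knockdown cells. Pooled, 15 of 34 members were higher and 0 lower, against 14.6% and 12.1% of all genes, with a median of 0.17. All 4 knockdown libraries lay above all 4 control libraries for 12 members, against 15.5% of all genes. With shRNA 1, 24 were higher and 0 lower, against 20.6% and 18.7%. With shRNA 2, 9 were higher and 2 lower, against 16.8% and 14.5%; the lower ones were Tk1 at -0.22 and Pold1 at -0.20. Compared directly, 0 were higher and 10 lower with shRNA 2 than with shRNA 1, against 10.6% and 8.94%.

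Rfc4 changed most in the pooled comparison. Its libraries had 332 and 296 normalized reads with shRNA 1, 276 and 257 with shRNA 2 and 218, 204, 230.2 and 198 in control, with no overlap, and the log2 change was 0.39 ± 0.09 (SE) with an adjusted p of 0.0061 in limma. Rrm2 had 2049 and 2050 with shRNA 1, 1774 and 2015 with shRNA 2 and 1494, 1333, 1568 and 1621 in control, a change of 0.37. Orc1 had 201 and 213 with shRNA 1 but 128 and 131 with shRNA 2, inside the control range of 115 to 146, and its shRNA 2 minus shRNA 1 difference of -0.56 was called.

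The other members higher on day 3 were Cdc6 at 0.38, Mcm7 at 0.31, Orc6 at 0.29, Cdt1 at 0.28, Mcm3 at 0.25, Mcm2 at 0.21, Mcm5 at 0.19, Cdc45 at 0.38, E2f2 at 0.35, Pole at 0.28, Prim1 at 0.28, Rfc3 at 0.22 and Rrm1 at 0.13. Pold1, with the lowest pooled value, had 859.7 and 806 normalized reads with shRNA 1, 770.4 and 785 with shRNA 2 and 1007, 869.5, 840.4 and 910 in control; its pooled -0.16 was not called, with an adjusted p of 0.0827. The pooled count of 15 became 8 without the third control library and 2 in 1 fit of all 32 libraries. The 11 calls with shRNA 2 became 4 without its second library and 7 without its first or without the third control library. The 10 calls between the shRNAs became 4 without either shRNA 1 library and 3 without the first shRNA 2 library. The adipocyte marker mean was 10.83 to 11.14 in knockdown and 9.85 to 9.99 in control libraries, and the preadipocyte marker mean was 11.64 and 11.59 with shRNA 1, 11.95 and 11.96 with shRNA 2 and 11.97 to 12.05 in control libraries. Between the shRNAs, 5 of 7 preadipocyte markers tested were higher with shRNA 2 and 1 lower. The part of both marker lists in these changes was not tested.

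**Figure D4:**
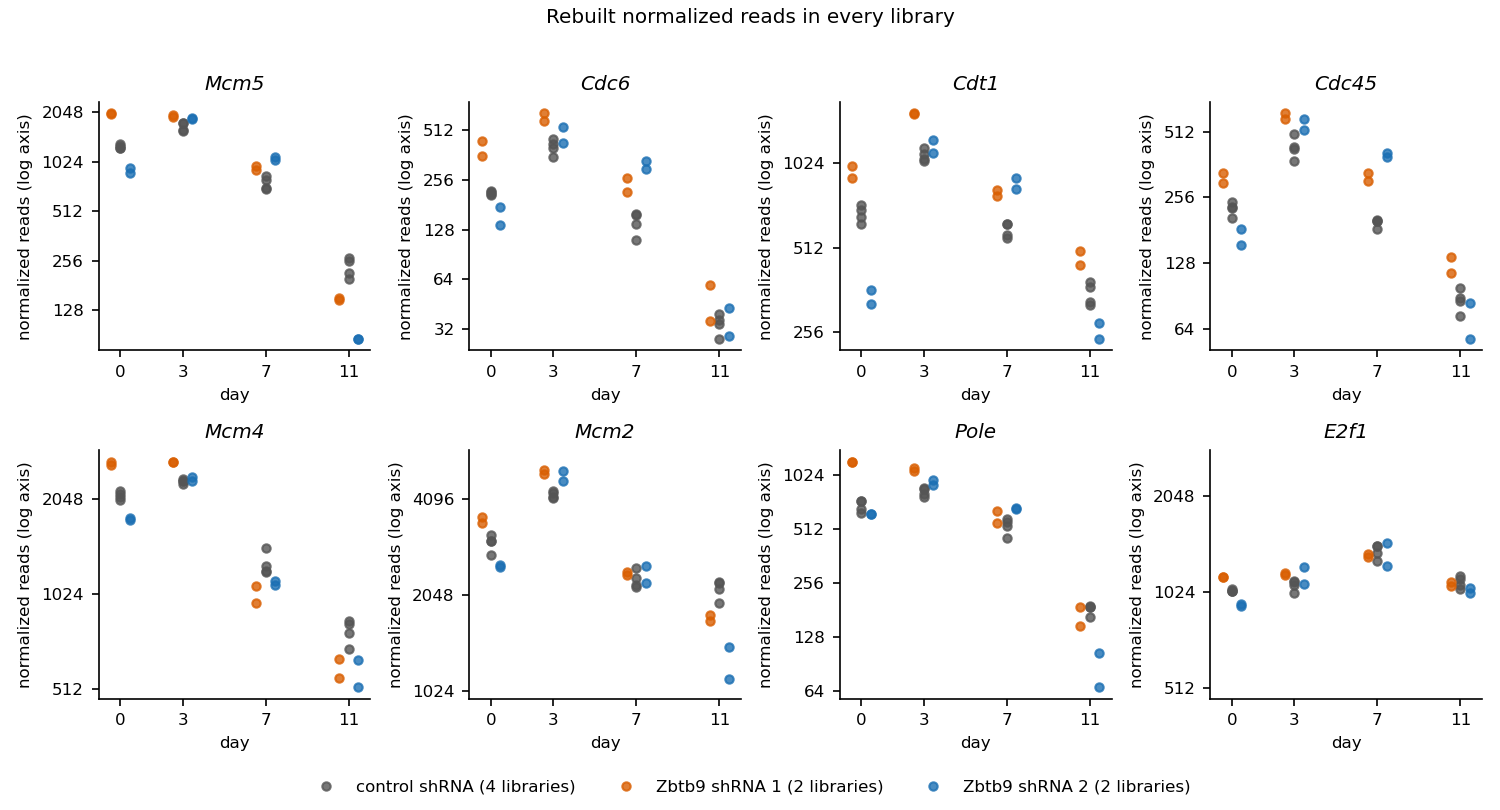
Normalized reads in each library (y axis, log scale) by day (x axis) for 8 members; each point is 1 library, coloured by group. On day 0 Mcm5 and Cdt1 are ordered shRNA 1, control, shRNA 2, and on day 7 Cdc6 and Cdc45 lie above all control libraries with both shRNAs and Mcm4 below them.

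On day 7 part of the list was higher with both shRNAs, while subunits of the MCM ring lay on opposite sides of control. Pooled, 18 of 34 members were higher and 2 lower, against 24.9% and 22.6% of all genes, with a median of 0.21. All knockdown libraries lay above all control libraries for 13 members against 23.3% of all genes, and below them for Mcm4 and Mcm6 against 20.9%. With shRNA 1, 13 were higher and 3 lower, against 27.7% and 24.3%, and with shRNA 2, 19 were higher and 2 lower, against 24% and 22%. Between the shRNAs, 0 members were higher and 0 lower, against 7.52% and 8.9%; limma's unadjusted p was under 0.05 for 7 members and voom on rebuilt reads called 2.

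Cdc6 changed most. It had 216 and 262 normalized reads with shRNA 1, 334 and 299 with shRNA 2 and 158, 138, 111 and 156 in control, with no overlap. The log2 change was 0.85 ± 0.13 (SE) with an adjusted p of 6.11e-05 in limma. Cdc45 had 303 and 331 with shRNA 1 and 411 and 393 with shRNA 2 against 201, 184, 199 and 201 in control, a change of 0.77 ± 0.10 (SE). Rrm2 had 1148 and 1140, then 1336 and 1426, against 814, 748, 672 and 929.5 in control, a change of 0.64.

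Within the MCM ring, Mcm5 rose by 0.39, with 914 and 963 normalized reads for shRNA 1 and 1053 and 1099 for shRNA 2 against 787, 708, 694 and 836 in control, and Mcm7 rose by 0.24. Mcm4 fell by 0.25 ± 0.07 (SE), with an adjusted p of 0.0071 in limma, from 1258, 1214, 1205 and 1433 in control to 1086 and 957 with shRNA 1 and 1127 and 1091 with shRNA 2. Mcm6 fell by 0.15, and Mcm2 and Mcm3 were not called, at 0.06 and -0.02. The products of all 6 genes sit in the same ring.

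The other members higher on day 7 were Gins1 at 0.58, E2f2 at 0.57, Cdt1 at 0.47, Tk1 at 0.45, Rfc4 at 0.41, Mcm10 at 0.38, Prim1 at 0.28, Orc6 at 0.27, Pcna at 0.23, Chaf1a at 0.23, Pole at 0.23, Uhrf1 at 0.21 and Rrm1 at 0.14. E2f1 had 1321 and 1349 normalized reads with shRNA 1, 1238 and 1453 with shRNA 2 and 1424, 1358, 1426 and 1279 in control, and was not called at -0.03. Lig1 had 877 and 777 with shRNA 1, 973 and 963 with shRNA 2 and 999, 1023, 971 and 1078 in control, for -0.28 (adjusted p 0.00108) and -0.07 (adjusted p 0.455); the difference between the shRNAs was not called, at 0.22. The pooled count of 20 became 9 in 1 fit of all 32 libraries, and the 16 calls with shRNA 1 became 9 without its second library. The adipocyte marker mean was 13.06 to 13.44 in knockdown and 11.46 to 11.58 in control libraries, and the preadipocyte marker mean was 12 to 12.17 in knockdown and 12.56 to 12.64 in control libraries; their part in these changes was not tested.

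On day 11, with the control cells at their lowest, part of the list was lower still in knockdown cells. Pooled, 0 of 34 members were higher and 10 lower, against 16.8% and 16.2% of all genes, with a median of -0.16. All knockdown libraries lay below all control libraries for 11 members against 17.3% of all genes. With shRNA 1, 4 were higher and 10 lower, against 21.4% and 22.2%, at a median of -0.07. The lower count with shRNA 1 is not far above that background. With shRNA 2, 0 were higher and 16 lower, against 17.4% and 19.4%, at a median of -0.28. Compared directly, 0 were higher and 12 lower with shRNA 2 than with shRNA 1, against 11.6% and 10.4%.

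Mcm5 had the most negative pooled log2 change. It had 147 and 151 normalized reads with shRNA 1, 85.1 and 85.0 with shRNA 2 and 253, 196, 264 and 216 in control, and the 3 groups did not overlap. The log2 change was -0.54 ± 0.12 (SE) with shRNA 1 and -1.19 ± 0.12 with shRNA 2, and the pooled value was -0.87 with an adjusted p of 0.00278 in limma. Mcm2 fell by 0.51, from 2258, 1938, 2232 and 2142 in control to 1696 and 1771 with shRNA 1 and 1404 and 1119 with shRNA 2. Mcm4 was called at -0.38 and Mcm6 at -0.27, whereas pooled Mcm3 and Mcm7 were not called, at -0.28 and -0.09.

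Beyond the ring, the members that fell in the pooled comparison were Chaf1b at -0.70, Tyms at -0.56, Pola1 at -0.41, Lig1 at -0.30, Rfc5 at -0.25 and Rrm1 at -0.21. Lig1 had 417 and 387 normalized reads with shRNA 1, 406 and 407 with shRNA 2 and 498, 525, 467 and 534 in control. Uhrf1 had 329.8 and 293 with shRNA 1, 190.3 and 186 with shRNA 2 and 366, 333, 331 and 332 in control; it fell by 0.76 with shRNA 2 and was not called with shRNA 1, at -0.11, nor pooled, at -0.43 with an adjusted p of 0.0538. Pole had 147 and 188, then 67.0 and 104, against 189.5, 164, 187 and 188, and was at -0.10 with shRNA 1, not called, and -0.91 with shRNA 2.

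The members higher with shRNA 1 on day 11 were Cdc45 at 0.46, Cdt1 at 0.40, Orc6 at 0.24 and Pcna at 0.21. Cdt1 had its day 0 order again, with 445 and 498 normalized reads for shRNA 1, 319, 387, 327 and 372 in control and 241 and 276 for shRNA 2. Cdc6, the member with the highest pooled value, had 35.7 and 59.0 with shRNA 1, 28.7 and 42.5 with shRNA 2 and 27.7, 39.2, 36.1 and 34.4 in control, and was not called at 0.19 with an adjusted p of 0.36. The 14 calls with shRNA 1 became 6 without its second library, the 16 with shRNA 2 became 9 without its first, and the 12 between the shRNAs became 7 without the second shRNA 1 library. On this day control libraries held 26500000 to 31100000 reads and knockdown libraries 22800000 to 25500000, and the adipocyte marker mean was 10.69 to 10.90 in control and 12.22 to 12.49 in knockdown libraries. On the same day the preadipocyte marker mean was 12.27 and 11.98 with shRNA 1, 12.49 and 12.40 with shRNA 2 and 12.69 to 12.80 in control libraries. Their part in these changes was not tested.

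The difference between the shRNAs was then compared between days, a comparison added after the data had been seen. For each member the shRNA 2 minus shRNA 1 difference of a later day was set against that of day 0. On day 3 it was higher in 20 of 34 members and lower in 0, against 4.49% and 3.17% of all genes, with a median shift of 0.48. Day 7 gave 30 and 0, against 4.29% and 3.65%, with a median of 0.76, and day 11 gave 17 and 0, against 5.72% and 4.94%, with a median of 0.41. Cdc6 went from a difference of -1.20 on day 0 to 0.36 on day 7, and Cdt1 from -1.38 to 0.11 and then -0.79 on day 11. The mitosis list gave 34, 34 and 10 of 34 higher on days 3, 7 and 11 and none lower. Of 7 preadipocyte markers tested, 4, 1 and 4 were higher and 0, 0 and 0 lower, and their part in the members' shift was not tested. The 3 comparisons share the day 0 libraries. The day 3 count was 13 without the second shRNA 2 library of day 3.

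The pooled knockdown effect was also compared with that of day 0. On day 3, 0 members were higher and 0 lower, against 3.69% and 2.88% of all genes; limma's unadjusted p was under 0.05 for 1 member and voom on rebuilt reads called 0. On day 7, 1 was higher, Cdc45 at 0.75, and 0 lower, against 16.8% and 13.2%. On day 11, 0 were higher and 9 lower, against 12.4% and 10.8%, with Mcm5 at -0.95, Pole at -0.81, Tyms at -0.67, Chaf1b at -0.67, Pola1 at -0.56, Mcm2 at -0.52, Mcm4 at -0.43, Fen1 at -0.39 and Rrm1 at -0.31. In the same comparisons 12, 11 and 10 of 12 adipocyte markers were higher on days 3, 7 and 11. Of 7 preadipocyte markers, 0, 2 and 3 were lower and 0, 0 and 1 higher. The part of both marker lists in the members' changes was not tested. The day 0 knockdown group in these fits holds the opposite values of the 2 shRNAs. With the shRNAs as separate groups the counts were 7, 14 and 17 on days 3, 7 and 11. Without the first or the second shRNA 1 library of day 0 the counts were 6 and 8 on day 7 and 5 and 5 on day 11. Without the first or the second shRNA 2 library they were 3 and 2 on day 7 and 14 and 14 on day 11. Day 7 also gave 2 without the fourth control library of day 0 or the third of day 7.

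The changes of the replication genes were set beside those of the mitosis list, as a description. On day 0, 34 of 34 mitosis genes were higher with shRNA 1, against 15.8% of all genes, with a median of 0.95 against 0.42 for the members. With shRNA 2, 2 mitosis genes were higher and 8 lower, against 7.38% and 10.2%, with a median of -0.08 against -0.27. The medians with shRNA 1 and shRNA 2 were 0.32 and 0.23 for mitosis genes on day 3 against 0.26 and 0.10 for members. Higher on that day were 23 and 15 mitosis genes and 24 and 9 members, against 20.6% and 16.8% of all genes. On day 7 the medians were 0.44 and 0.66 for mitosis genes against 0.16 and 0.25 for members. Higher were 30 and 34 mitosis genes and 13 and 19 members, against 27.7% and 24% of all genes. On day 11 the mitosis list had 3 higher and 3 lower with shRNA 1, against 21.4% and 22.2% of all genes, at a median of 0.09. With shRNA 2 it had 0 higher and 29 lower, against 17.4% and 19.4%, at a median of -0.64. The members' medians on that day were -0.07 and -0.28. The difference between the lists was not tested.

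**Figure D5:**
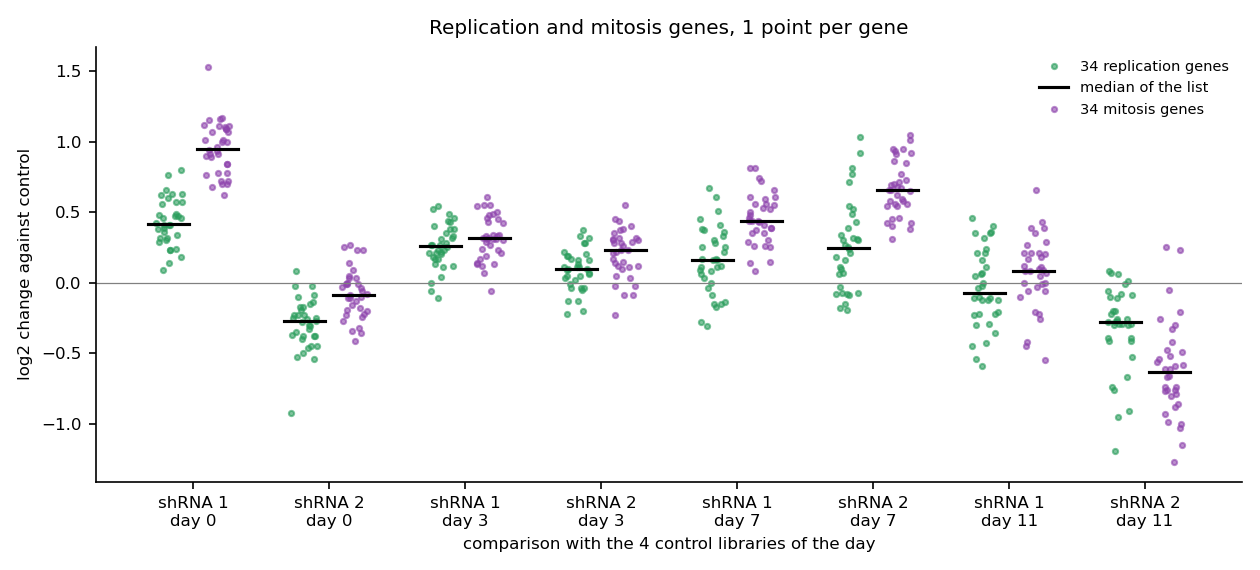
Log2 change against control (y axis) of each gene of the replication and the mitosis list, by shRNA and day (x axis), with list medians as bars. The replication median lies below the mitosis median for both shRNAs on days 0, 3 and 7, and above it for shRNA 2 on day 11.

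Per library, the mean of the members minus that of the mitosis list was 0.33 to 0.37 in control cells on day 0, -0.19 and -0.13 with shRNA 1 and 0.12 and 0.16 with shRNA 2. On day 7 it was 0.55 to 0.76 in control and 0.19 to 0.36 in knockdown libraries. On both days every knockdown library lay below every control library in these means. With medians over the lists in place of means, the shRNA 2 minus control difference of day 0 was -0.05 in place of -0.22. On day 3 the control range was 0.82 to 0.96 and the knockdown range 0.75 to 0.86; the differences from control were -0.06 with shRNA 1 and -0.12 with shRNA 2, and -0.21 and -0.20 with medians. On day 11 it was 1.18 to 1.25 in control, 1.06 and 1.17 with shRNA 1 and 1.48 and 1.54 with shRNA 2. The differences from control were then -0.10 with shRNA 1, or -0.20 with medians, and 0.29 with shRNA 2, or 0.50 from rebuilt reads.

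A further list of 48 replication genes outside the 34 was counted the same way. With shRNA 1 on day 0, 33 were higher and 3 lower, against 15.8% and 18.9% of all genes, and with shRNA 2, 1 and 15, against 7.38% and 10.2%. The pooled counts were 15 higher and 2 lower on day 3, 27 and 1 on day 7 and 10 and 5 on day 11. Over all genes the shares were 14.6% and 12.1% on day 3, 24.9% and 22.6% on day 7 and 16.8% and 16.2% on day 11, so the counts of day 11 are near the background. The largest pooled rises on day 7 were Pole4, a small subunit of polymerase epsilon, at 1.25 and Asf1b, a histone chaperone, at 0.94. Dnmt1, the maintenance DNA methyltransferase, fell by 0.29.

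The regulators of entry into S phase did not move one way. Of 29 tested on day 7, 12 were higher and 6 lower in the pooled comparison, against 24.9% and 22.6% of all genes; the lower count is near that background. Ccnd1, cyclin D1, which drives cells through G1, had 3372 and 3355 normalized reads with shRNA 1, 2674 and 2025 with shRNA 2 and 8505, 8216, 8502 and 9207 in control, a log2 change of -1.57 with an adjusted p of 4.85e-05 in limma. Ccne2 and Ccne1, the E-type cyclins that start S phase, rose by 1.01 and 0.71. The cell cycle brake Cdkn2c rose by 1.02 and the retinoblastoma gene Rb1 by 1.02, and the brake Cdkn2b fell by 0.70.

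On day 11, 7 regulators were higher and 7 lower, against 16.8% and 16.2% of all genes. Ccne2 rose by 1.41, with 325 and 371 normalized reads for shRNA 1 and 199 and 185 for shRNA 2 against 59.4, 92.5, 91.2 and 90.1 in control. Ccnd1 fell by 1.22, and the brakes Cdkn1a, which encodes p21, and Cdkn1b, which encodes p27, rose by 0.77 and 0.47. On day 0, 12 regulators were higher and 7 lower with shRNA 1, and 2 and 9 with shRNA 2, against the 15.8%, 18.9%, 7.38% and 10.2% of all genes; Ccne2 was at 0.60 with shRNA 1 and -0.79 with shRNA 2. On day 3, 6 were higher and 3 lower in the pooled comparison, against 14.6% and 12.1%. Ccnd1 fell by 0.46 and Ccne2 rose by 0.51.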

How the data were processed

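RNA was sequenced from 32 libraries of 3T3-L1 cells, 16 with control shRNA and 8 with each of the 2 Zbtb9 shRNAs. The deposited table holds log2 values for 20560 genes made by the authors, with a regularized-log shape judged from the values; the transform is not named. The submitters' processing notes list TopHat2 2.1.0, Bowtie2 2.2.6, SAMtools 1.3.1 and HTSeq 0.6.1; the genome build was not given in the sources used here. Such values shrink differences of low genes towards the mean. All 32 columns matched a labelled library, leaving 0 unused.

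Genes with 2 to the power of the value at 10 or more in at least 4 libraries of a fit were kept, and limma 3.58.1 in R 4.3.3 (trend, robust) was run on the values, with Benjamini-Hochberg adjustment over all genes tested and a threshold of 0.05. The planned log2 of the value plus a pseudocount was not needed, since the values are already on a log scale. Fits within a day used that day's 8 libraries, control time courses the 16 control libraries, and comparisons of effects between days all 32 libraries. Reads were rebuilt by inverting the transform; 98.5% of member values came within 0.1 of a whole read. Normalized reads are these rebuilt reads after division by a size factor for each library, and they rest on the inversion. Tests were checked on simulated data with 200 changed genes: at 1.3-fold, 80.6% to 83.6% were recovered over the 4 pooled comparisons simulated, and 4.12% to 7.88% of all calls were false, over the 5% aimed at on days 3, 7 and 11. Recovery of changes that differ between the shRNAs, as on day 0, was not tested.

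Members and gene lists were chosen with earlier results of these data known, and the comparison of the difference between shRNAs across days was added after seeing them. All 34 members are named. Every library is given for Orc1, Cdc6, Mcm5, Cdc45, Pole, Pcna, Lig1, Rrm2, Uhrf1 and E2f1 on at least 1 day and for the members with the largest pooled rise and fall of each day; from other lists the largest called changes and fixed regulators are named. Promoters came from RefSeq. Replicate numbers were not taken as pairs.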

Additional observations from a re-analysis of the deposited data

Results flagged for a closer look

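The 4 control libraries of each of 4 days were checked for each of the 34 members and the 2 list means, 144 sets in all, and in 14 sets 1 library stood apart from the other 3. Chance sets apart about 1 set in 20, and the sets share libraries. These log2 values were 11.25 for Mcm6 in the first library of day 3, 9.70 for Tyms in the same library, 8.27 for Chaf1b in the fourth library of day 3, 7.95 for Gins3 and 9.64 for Pold1 in the fourth of day 0, and 8.60 for Tk1 in the third of day 0. On day 7 they were 10.43 for Pcna in the first library, 7.56 for Cdc45 and 5.18 for E2f2 in the second, 7.50 for Rfc4 in the third and 9.58 for Fen1 in the fourth. On day 11 they were 8.60 for Uhrf1 in the first library, 7.51 for Pole in the second and 8.94 for Orc6 in the fourth.

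The 2 shRNAs differed from each other in 34 members on day 0, in 10 on day 3 and in 12 on day 11, all lower with shRNA 2. Of all genes, 18.6% were higher and 16.4% lower on day 0, 10.6% and 8.94% on day 3 and 11.6% and 10.4% on day 11. The difference between the shRNAs was not the same as on day 0 in 20 members on day 3, in 30 on day 7 and in 17 on day 11, all higher. Of all genes, 4.49% were higher and 3.17% lower on day 3, 4.29% and 3.65% on day 7 and 5.72% and 4.94% on day 11. The pooled knockdown effect was not the same as on day 0 in 1 member on day 7, which was higher, and in 9 on day 11, which were lower. Of all genes, 16.8% were higher and 13.2% lower on day 7, and 12.4% and 10.8% on day 11. The day 7 count lies below that background.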

How the results depend on the processing

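Each shRNA has 2 libraries a day, and the effect of depth on the calls was not tested. Leaving out 1 of a pair leaves a lone library that is assumed to vary like the others. Counts of members called stayed within 1.5 times the main count in 167 of 190 other settings and in 374 of 400 fits without 1 library, and no called result changed sign. Of 8850 refits of genes shown in full, 158 changed sign where no fit called the gene. The cause of the changes below was not tested. One fit of all 32 libraries gave 2 for the pooled comparison on day 3, 5 for shRNA 2 and 6 between shRNAs on day 3, 9 pooled on day 7 and 2 between shRNAs on day 7. Without a filter, day 3 gave 4 for shRNA 2 and 5 between shRNAs; without trend and robust fitting it gave 5 and 3, and day 7 gave 1 between shRNAs. Equal totals gave 3 between shRNAs on day 7 and 3 for the pooled effect of day 7 against day 0, and voom gave 2 between shRNAs on day 7. With the shRNAs as separate groups, the pooled comparison of day 0 gave 7, and the pooled effect against day 0 gave 7, 14 and 17 on days 3, 7 and 11. With the replicate block, the pooled counts were 4 on day 3, 12 on day 7 and 1 on day 11, the count between shRNAs on day 7 was 1, and the pooled effect against day 0 gave 0 on day 7 and 0 on day 11. Same-numbered libraries of a day correlated at -0.00 to 0.22, with 5 of 24 pairs over 0.1, and the numbers were not taken as pairs. The highest values, 0.22, 0.15 and 0.13, were all between control and knockdown libraries of day 11. A pairing of that day's libraries is therefore less clearly absent, and with the block its pooled count was 1.

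Without 1 library, the counts ran from 13 to 24 for shRNA 2 on day 0, 8 to 17 pooled on day 3, 4 to 11 for shRNA 2 on day 3, 3 to 11 between shRNAs on day 3, 9 to 18 for shRNA 1 on day 7 and 0 to 1 between shRNAs on day 7. On day 11 they ran from 6 to 14 for shRNA 1, 9 to 16 for shRNA 2 and 7 to 12 between shRNAs. The change in the difference between shRNAs on day 3 ran from 13 to 21, and the pooled effect against day 0 from 1 to 8 on day 7 and 5 to 14 on day 11. The members minus mitosis difference from control ran from -0.55 to -0.49 for shRNA 1 and -0.24 to -0.20 for shRNA 2 on day 0, and -0.15 to -0.05 for shRNA 1 on day 11. From rebuilt reads it was -0.56 and -0.25 on day 0 and 0.50 for shRNA 2 on day 11. With medians over the lists it was -0.05 for shRNA 2 on day 0, -0.21 and -0.20 on day 3, -0.53 for shRNA 2 on day 7, and -0.20 and 0.38 on day 11. Equal totals moved the share of higher calls among all genes by over 10 points in 9 of 27 comparisons: from 25.1% to 43.3% pooled on day 0, from 42.0% to 57.0% for shRNA 2 on day 0, from 53.2% to 42.5% for shRNA 1 on day 7, from 45.8% to 61.9% between shRNAs on day 7, from 50.1% to 38.6% for control on day 3, from 56.2% to 42.4%, 56.0% to 40.7% and 53.6% to 40.1% for the pooled effect on days 3, 7 and 11, and from 54.0% to 69.7% for the difference between shRNAs on day 7.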
